A study of Mus musculus with 6 samples.

Results

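The 55 genes described here encode the machinery that licenses replication origins and runs the replication fork. They were chosen by name, as the rows of the count table whose deposited symbol equals that of a listed gene. The rule uses names alone, but the list was drawn up with earlier results of these data known. All 55 were found, each in 1 row, among 45792 genes counted. RNA came from whole hearts of mouse embryos at embryonic day 13.5 (e13.5), with 3 hearts labelled wild-type (control) and 3 labelled Tie2Cre INO80 flox/flox, the genotype Tie2Cre;Ino80 fl/fl (mutant). The labels give the strain C57BL/6, while the methods describe transgenic lines on mixed backgrounds, controls pooled from every genotype other than Tie2Cre;Ino80 fl/fl, and embryos whose sex was not typed. Ino80 is the ATPase of a chromatin remodelling complex. Tie2Cre places Cre recombinase under the Tek promoter, which is active in endothelial cells and their descendants and in blood cells, so most muscle cells of a mutant heart are not expected to be recombined. Whole hearts mix all of these cells, and in such samples fewer cells of a type and less RNA per cell cannot be told apart.

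A replication origin is licensed in G1, when the origin recognition complex (ORC), Cdc6 and Cdt1 load the ring-shaped MCM2-7 helicase onto DNA. In S phase the kinase Cdc7 with its partner Dbf4, together with Cdc45, the GINS complex and Mcm10, turns the loaded ring into a moving helicase, and polymerases, a sliding clamp and its loader copy the strands behind it. Many of these genes are transcribed under E2F factors around the entry into S phase, and their messages are abundant in tissues that still divide, such as the embryonic heart.

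Total counts ran from 30549842 to 37424689 in the control-labelled libraries and from 28948836 to 89675692 in the mutant-labelled ones, and the 55 genes held between 0.260% and 0.320% of them. The gene count of Ino80 did not separate the groups. Its levels were 30.2, 31.6 and 32.7 CPM in the controls and 36.5, 33.7 and 31.8 CPM in the mutants, where CPM are counts per M counts after TMM scaling, with a log2 fold change of 0.11 and an adjusted p of 0.473 by the edgeR quasi-likelihood test. A count over the whole gene in the whole heart does not check a deletion of 1 exon in endothelial cells, so groups are named here by their labels. Heart markers such as Tnnt2, Actc1, Myh6 and Nkx2-5 were present in all 6 libraries, while liver markers summed to at most 4.17 CPM.

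Promoter sequence can be described before any level is compared. RefSeq start sites on GRCm38.p6 were found for 46 of the 55 genes, with 250 bases before and 50 bases after each start. The 8-base E2F words TTTCCCGC, TTTCGCGC, TTTGCCGC and TTTGGCGC, on either strand, occurred in the promoters of 16 of the 46 genes (34.8%), against 2.61% of 27025 genes with a promoter in the same table. Of 33 other replication genes with a promoter, 33.3% held a word, and of 29 mitotic genes 3.45% did. The element TTTGAA or TTCGAA, which lies in many promoters used in G2 and M phase, was in 19.6% of the 46 promoters, 75.9% of the mitotic ones and 21.7% of all. The word CCAAT was in 56.5% of the 46 against 41.1% of all, and the GC box GGGCGG in 76.1% against 38.2%. These words can overlap one another and a match is a description of the sequence, not a bound site.

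The words lie differently in different promoters, which is why 6 are shown, each as the 170 bases that end just before the start site, 5′ to 3′ on the gene's strand. Capitals mark the E2F words on either strand. All 6 were taken from promoters with a word in these bases. The first 3 belong to helicase genes with an unadjusted edgeR p under 0.05 for a higher level in the mutant-labelled hearts. None of these passed after adjustment in edgeR, though DESeq2 gave Mcm7 an adjusted p of 0.0415. The last 3 belong to genes with a larger unadjusted edgeR p. Mcm2 and Mcm10, also higher at an unadjusted p under 0.05, held no E2F word, and no promoter was found for Mcm4.
Mcm5, chr8:75109339-75109508, plus strand: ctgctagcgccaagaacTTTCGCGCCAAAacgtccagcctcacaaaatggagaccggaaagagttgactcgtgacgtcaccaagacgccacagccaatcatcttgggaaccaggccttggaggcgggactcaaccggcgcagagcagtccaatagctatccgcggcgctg
Mcm6, chr1:128359706-128359875, minus strand: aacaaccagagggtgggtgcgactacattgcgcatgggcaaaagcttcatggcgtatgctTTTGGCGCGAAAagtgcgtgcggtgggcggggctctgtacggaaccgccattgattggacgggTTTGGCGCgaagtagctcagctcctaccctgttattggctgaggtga
Mcm7, chr5:138171884-138172053, minus strand: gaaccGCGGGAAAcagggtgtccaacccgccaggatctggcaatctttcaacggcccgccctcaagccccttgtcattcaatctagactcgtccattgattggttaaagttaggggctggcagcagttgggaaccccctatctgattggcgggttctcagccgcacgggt
Orc1, chr4:108579284-108579453, plus strand: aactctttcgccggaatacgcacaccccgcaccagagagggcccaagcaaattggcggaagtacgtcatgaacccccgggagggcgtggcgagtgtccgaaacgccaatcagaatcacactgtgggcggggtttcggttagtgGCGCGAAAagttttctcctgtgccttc
Cdc6, chr11:98907981-98908150, plus strand: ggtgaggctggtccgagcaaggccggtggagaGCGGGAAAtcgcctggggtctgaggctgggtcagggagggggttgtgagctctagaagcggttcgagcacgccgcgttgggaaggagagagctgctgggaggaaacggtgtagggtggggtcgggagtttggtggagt
Pola1, chrX:93632156-93632325, minus strand: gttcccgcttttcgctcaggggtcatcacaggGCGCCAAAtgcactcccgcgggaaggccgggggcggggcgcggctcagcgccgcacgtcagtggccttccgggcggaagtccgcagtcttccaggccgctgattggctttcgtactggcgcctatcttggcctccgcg
In Mcm5 2 words on opposite strands overlap in 1 stretch, and Mcm6 has 3 words in 2 stretches. In Mcm3, Cdt1, Pold1, Pold3, Pole2, Lig1 and Clspn the words lay after the start site. Among promoters of the genes that edgeR put higher with p under 0.05 before adjustment, 7 of 13 held an E2F word (53.8%). Of the other 33, 9 did (27.3%). No promoter was found for Mcm4, Gins2 and Pole, which were also higher at that p. Whether these shares differ was not tested.

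All 55 genes were tested, in a fit of 17125 genes. Replication genes were on balance higher in the mutant-labelled hearts, by small amounts: 48 had a positive log2 fold change and 7 a negative one, with a median of 0.14 where the median over all tested genes was -0.0017. Single genes ran from -0.21 for Orc4 to 0.37 for Pold1. None passed an adjusted p of 0.05 in edgeR in either direction, nor did any other tested gene (0% called higher and 0% called lower). At an unadjusted p under 0.05, 16 of the 55 were higher (29.1%) and 0 lower, against 9.48% and 9.98% of all tested genes. The lowest mutant-labelled value lay above the highest control-labelled value for 22 genes (40.0%), against 14.3% of all tested genes, and the reverse held for 1 gene against 12.8%. Genes within the same range of mean CPM gave similar background shares, with 10.3% higher at that p and 15% without overlap.

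DESeq2 called 8 of the 55 higher and 0 lower, against 2.67% and 3.43% of the genes to which it gave an adjusted p. The 8 were Mcm2, Mcm3, Mcm7, Pold1, Pole, Lig1, Chaf1a and Chaf1b. The count turned on single hearts, as did the count over all tested genes. For the 55 it was 10 without control 1, 2 without control 2, 3 without control 3, 2 without mutant 1, 1 without mutant 2 and 3 without mutant 3. Over all tested genes, 784, 260, 265, 151, 172 and 305 were called higher in the same fits, in that order, against 443 with all hearts. Mcm2 and Lig1 were each called in 5 of the 6 fits with a heart left out. Without control 3, DESeq2 also called Orc4 lower, among 330 genes called lower in that fit.

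Heart by heart, the mean of log2(CPM + 1) over the 55 genes differed from the mean of the control-labelled hearts by 0.036, 0.0089 and -0.045 in controls 1 to 3 and by 0.096, 0.14 and 0.16 in mutants 1 to 3. Their summed level was 2887, 2852 and 2709 CPM in the controls and 2988, 3111 and 3169 CPM in the mutants. The groups did not overlap on either scale. Control 3 gave the lowest value for 22 genes and mutant 3 the highest for 24.

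**Figure D1:**
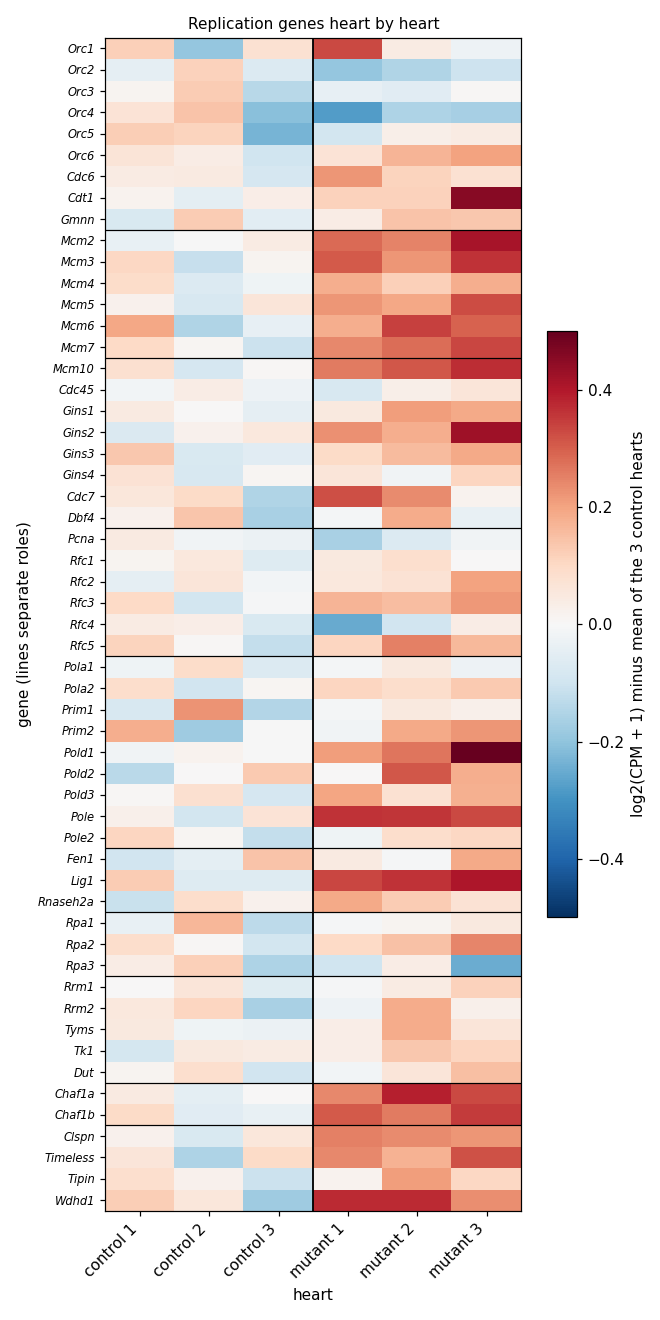
Each row is 1 of the 55 genes and each column 1 heart, and colour gives log2(CPM + 1) minus the mean of the 3 control-labelled hearts. Red fills the mutant columns for Mcm2 to Mcm7, Lig1, Pole, Chaf1a and Chaf1b, while the ORC, clamp and nucleotide rows are pale or mixed.

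The licensing factors that load the helicase did not move as 1 group. Of 9 genes, 5 had positive and 4 negative log2 fold changes, with a median of 0.10, and 0 passed the unadjusted threshold in either direction. The negative ones were all ORC subunits. Orc4 had the lowest log2 fold change of the 55, and its levels were 50.6, 53.3 and 41.6 CPM in the controls and 39.6, 43.3 and 42.8 CPM in the mutants. Control 3 lay among the mutants and the groups overlapped, with a log2 fold change of -0.21 (95% interval -0.449 to 0.0266) and an adjusted p of 0.300 in edgeR. Orc6, Cdc6 and Cdt1 had every mutant value above every control value, and Orc2 was the 1 gene of the 55 with every mutant value below every control value. Orc2 stood at 27.5, 30.8 and 27.0 CPM against 24.7, 25.5 and 26.3 CPM, a log2 fold change of -0.16 (-0.348 to 0.034) with an adjusted p of 0.330 in edgeR. Leaving out control 3 gave 6 genes without overlap in the lower direction and leaving out mutant 3 gave 3. Groups separate more readily by order alone when a heart is left out. The share of all tested genes was not counted in those fits, so their counts are not comparable with the 1 gene of the full fit. Opposite-strand exons of Nif3l1 cover 29.8% of the exon bases of Orc2, and whether the counting used strand is not given in the sources used here.

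Orc3 and Orc5 differed little, at -0.03 (-0.226 to 0.157) and -0.02 (-0.279 to 0.243) on the log2 scale. Orc6, the smallest ORC subunit, had 0.15, and Orc1, an ATPase subunit of the complex, had 0.14 at only 4.89 ± 0.671 CPM (SD, n = 3) in the controls. For Cdc6, which joins ORC to load MCM2-7, the log2 fold change was 0.14. Cdt1 carries MCM2-7 to the origin and Gmnn encodes geminin, its inhibitor. Cdt1 had 0.24 (-0.00218 to 0.479), with mutant 3 at 66.2 CPM above both other mutants at 52.1 CPM, and 0.12 without that heart. Gmnn had 0.10 (-0.0865 to 0.296). The intervals of all 9 included 0.

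All 6 MCM2-7 genes passed the unadjusted threshold in the higher direction, by 11.8% to 24.7% from the fitted fold change. Their median log2 fold change was 0.28, and the groups did not overlap for 5 of them. Summed over the 6, the level was 658, 591 and 615 CPM in the controls and 730, 735 and 775 CPM in the mutants. Mcm2, which also binds histones, stood at 105, 108 and 111 CPM against 132, 128 and 144 CPM. The 3 controls lay close together and the mutants began 17.3 CPM above the highest of them. Its log2 fold change was 0.32 (0.158 to 0.480), with an adjusted p of 0.0918 in edgeR and 0.0104 in DESeq2.

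Mcm3 had 94.6, 81.2 and 88.8 CPM in the controls and 109, 103 and 113 CPM in the mutants. Mcm5 had 90.3, 84.0 and 92.8 CPM against 104, 102 and 112 CPM. Mcm7 had 108, 101 and 93.4 CPM against 119, 122 and 127 CPM. In each of these the groups were separate, with log2 fold changes of 0.30, 0.25 and 0.28. DESeq2 gave adjusted p of 0.0428, 0.0780 and 0.0415 for them, and edgeR 0.121, 0.137 and 0.121. Mcm4, part of the core of the helicase, had the smallest difference of the 6, with 108, 96.2 and 99.4 CPM in the controls and 115, 109.6 and 115 CPM in the mutants, a log2 fold change of 0.16 (0.00415 to 0.318). For Mcm6 the values were 153, 120.3 and 129.8 CPM against 152, 169.97 and 164 CPM. Control 1 was level with mutant 1 and the groups touched, with a log2 fold change of 0.27 (0.0393 to 0.498) that ran from 0.20 to 0.37 when single hearts were left out. In CPM per kilobase of exon the 6 genes lay between 15.5 for Mcm2 and 28.8 for Mcm6 in the controls, all above the ORC subunits, which ran from 1.41 for Orc1 to 12.4 for Orc6.

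**Figure D2:**
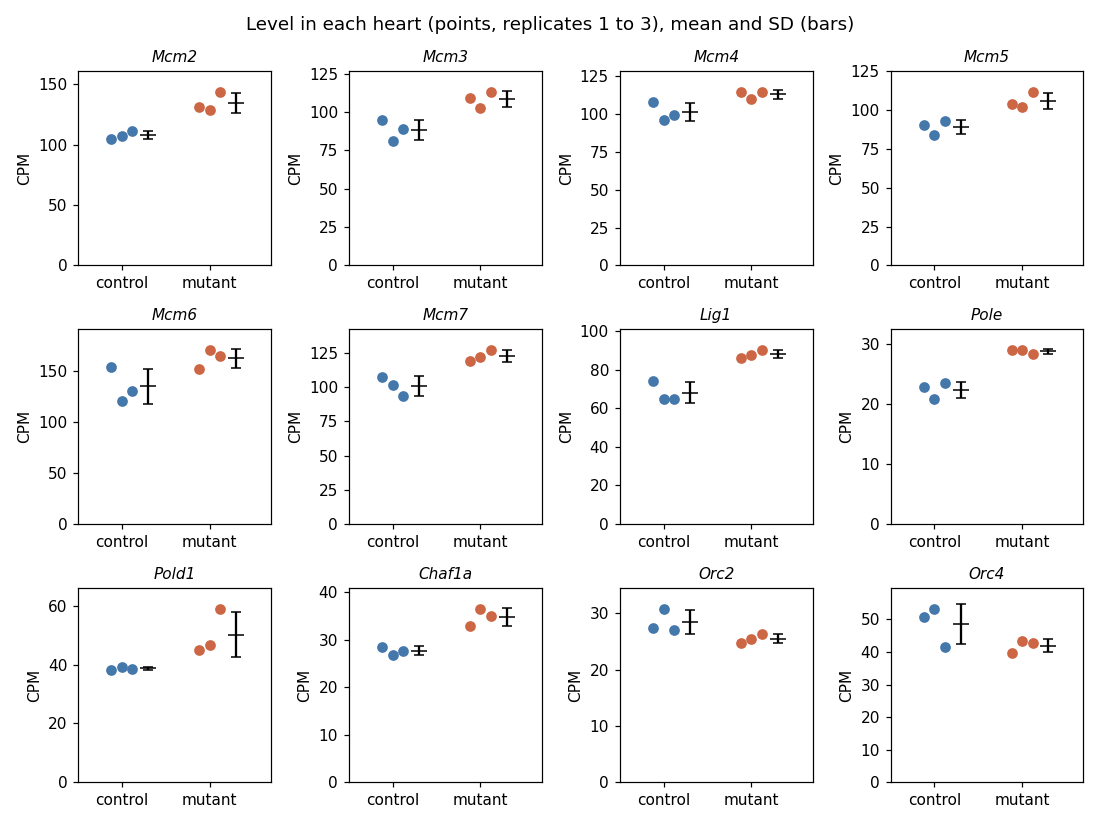
Points are the CPM of single hearts, controls in blue and mutants in orange, replicates 1 to 3 from left to right, and black bars give the mean and SD of 3 hearts from a zero baseline. The 6 MCM genes, Lig1, Pole, Pold1 and Chaf1a have higher mutant means, with overlap only in Mcm6, while Orc2 and Orc4 have lower ones, with overlap in Orc4.

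Of the 8 genes that activate the helicase, all had positive log2 fold changes, with a median of 0.16, and 2 passed the unadjusted threshold. Mcm10, which binds the activated helicase, stood at 18.1, 16.1 and 17.1 CPM in the controls and 20.7, 21.4 and 22.3 CPM in the mutants. The groups were separate, with a log2 fold change of 0.33 (0.131 to 0.523) and adjusted p of 0.121 in edgeR and 0.0619 in DESeq2. Gins2 had 0.29 (0.0775 to 0.509), and 67.3% of its exon bases are shared with Gse1 on the opposite strand, a gene at 35.6 CPM where Gins2 had 22.2 CPM over the 6 hearts. The other GINS genes had 0.16 for Gins1, 0.15 for Gins3 and 0.05 for Gins4, all with intervals that included 0. Cdc45, the helicase partner of GINS, stood at 28.9 ± 0.683 and 29.0 ± 1.52 CPM (SD, n = 3 each), with an interval of -0.170 to 0.180 on the log2 scale. The kinase Cdc7 had 0.21 (-0.0510 to 0.461) and Dbf4 0.05 (-0.192 to 0.283).

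None of the 6 clamp and loader genes passed the unadjusted threshold. Pcna, the clamp that tethers polymerases, was at 163 ± 4.61 CPM in the controls and 154 ± 7.63 CPM in the mutants (SD, n = 3 each), a log2 fold change of -0.08 (-0.242 to 0.0762). The loader subunits had log2 fold changes of 0.05 for Rfc1, 0.11 for Rfc2, 0.18 for Rfc3, -0.10 for Rfc4 and 0.18 for Rfc5. Of the clamp and loader genes only Rfc3 had groups without overlap, at 24.3 ± 1.69 against 27.7 ± 0.629 CPM (SD, n = 3 each). The annotation holds 2 processed pseudogenes of Pcna and 1 of Tyms, so the counts of both genes are uncertain.

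Among the primase and polymerase genes all 9 log2 fold changes were positive, with a median of 0.13, and the catalytic subunits of the 2 main fork polymerases stood out. Pole, the leading-strand polymerase epsilon, had 22.8, 20.9 and 23.5 CPM in the controls and 29.1, 29.0 and 28.4 CPM in the mutants. The 3 mutants were nearly equal and 4.92 CPM above the highest control, with a log2 fold change of 0.36 (0.183 to 0.542) and adjusted p of 0.0906 in edgeR and 0.0163 in DESeq2. Pold1, the lagging-strand polymerase delta, had 38.2, 39.1 and 38.6 CPM against 44.8, 46.7 and 59.0 CPM. Mutant 3 lay far above the other mutants here as it did for Cdt1, and the log2 fold change of 0.37 (0.122 to 0.626) was 0.25 without it. Its adjusted p was 0.146 in edgeR and 0.0479 in DESeq2.

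Their accessory subunits differed less, with 0.17 for Pold2, 0.15 for Pold3 and 0.06 for Pole2, and each interval included 0. The primase complex that starts every new strand showed no difference past the threshold: Pola1 had an interval of -0.170 to 0.177 and Prim1 one of -0.233 to 0.260, while Pola2 and Prim2 had log2 fold changes of 0.11 and 0.13 that also did not pass.

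Lig1, the ligase that joins Okazaki fragments, had the smallest p of the 55. Its levels were 74.5, 64.9 and 65.1 CPM in the controls and 86.1, 87.7 and 90.2 CPM in the mutants. They were 29.1% higher from the fitted fold change and 11.6 CPM apart at the nearest values. The log2 fold change was 0.37 (0.196 to 0.541), with adjusted p of 0.0834 in edgeR and 0.00581 in DESeq2, and it lay between 0.34 and 0.44 whichever heart was left out. Lig1 spans chr7:13277283-13311433 on the plus strand of GRCm38. Rnaseh2a, which removes RNA primers, had 0.13 (-0.0590 to 0.327). Fen1, the flap nuclease, was at only 1.59 ± 0.231 and 1.73 ± 0.195 CPM (SD, n = 3 each), and 78.8% of its exon bases are shared with Gm10143 on the opposite strand. Its log2 fold change of 0.12 had an interval of -0.392 to 0.626, and its level is uncertain.

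Replication protein A coats single-stranded DNA at the fork. Rpa1 had -0.183 to 0.209 as its interval, Rpa2 a log2 fold change of 0.16 with groups that did not overlap, and Rpa3 one of -0.11. Rpa3 had 25.8, 27.4 and 22.5 CPM in the controls and 23.4, 25.8 and 21.0 CPM in the mutants, with the groups mixed. The enzymes that supply nucleotides included some of the most abundant of the 55. Rrm1 and Rrm2, which form ribonucleotide reductase, had 201 ± 8.68 and 194 ± 18.7 CPM in the controls and 209 ± 8.95 and 202 ± 15.8 CPM in the mutants (SD, n = 3 each). With Tyms, Tk1 and Dut their log2 fold changes ran from 0.05 to 0.10, and 0 of the 5 passed the unadjusted threshold or had separate groups. Per kilobase of exon, Rrm2 at 69.9 and Pcna at 67.7 CPM were the highest of the 55 in the controls.

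Both chromatin assembly genes and 3 of 4 fork protection genes were higher at an unadjusted p under 0.05. Chaf1a and Chaf1b encode subunits of CAF-1, which places histones on new DNA. Chaf1a stood at 28.6, 26.7 and 27.7 CPM against 32.8, 36.5 and 35.0 CPM, and Chaf1b at 25.2, 22.6 and 22.9 CPM against 29.4, 28.4 and 30.3 CPM. Both pairs of groups were separate, with log2 fold changes of 0.33 (0.152 to 0.507) and 0.31 (0.131 to 0.498) and adjusted p of 0.0289 and 0.0491 in DESeq2 (0.10 and 0.117 in edgeR). Exons of Ubxn6 on the opposite strand cover 52.5% of the exon bases of Chaf1a, while Chaf1b has no such overlap of 10% or more.

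Clspn encodes claspin, which links the fork to the checkpoint kinase. Its controls were at 27.9, 25.9 and 28.6 CPM and its mutants at 32.9, 32.5 and 32.2 CPM. Wdhd1, which joins the helicase to polymerase alpha, had 27.2, 25.9 and 21.9 CPM against 32.6, 32.6 and 29.4 CPM. The groups were separate in both, with log2 fold changes of 0.24 (0.0738 to 0.414) and 0.33 (0.103 to 0.565) and adjusted p of 0.153 and 0.152 in edgeR. Timeless had 0.25 (0.0339 to 0.461), and Tipin, which binds it in a fork protection complex, 0.11 (-0.0881 to 0.313).

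**Figure D3:**
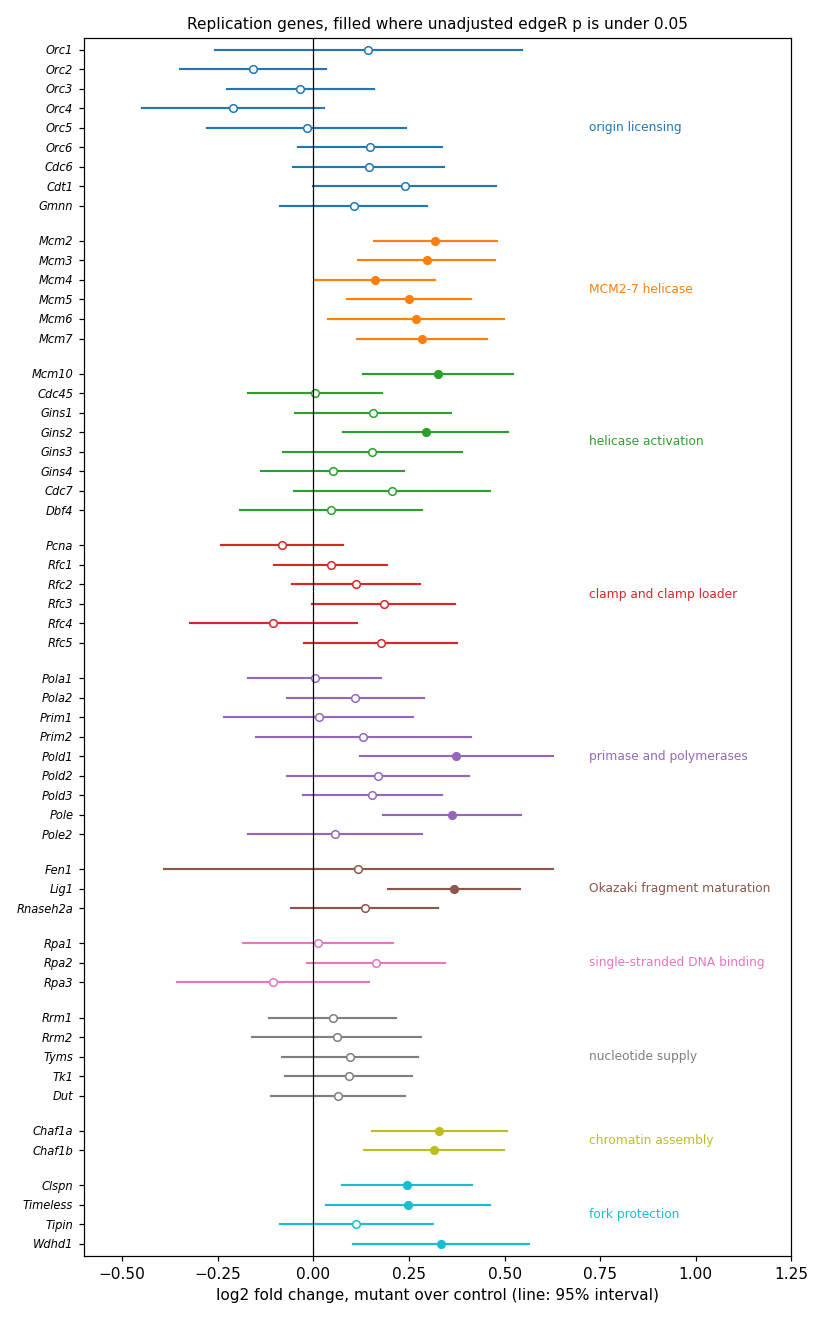
Points are log2 fold changes of the 55 genes, mutant-labelled over control-labelled, with 95% intervals as lines, grouped by role and filled where the unadjusted edgeR p is under 0.05. All 6 MCM2-7 points and both chromatin assembly points are filled and positive, and 0 of the 9 licensing and 0 of the 5 nucleotide supply points are filled.

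Genes of neighbouring processes were set beside the 55. Of 44 tested other replication genes, 32 had positive log2 fold changes, with a median of 0.088. At the unadjusted threshold 10 passed as higher (22.7%) and 1 as lower (2.27%), against 9.48% and 9.98% of all tested genes. Every mutant value lay above every control value for 29.5% of them, against 14.3% of all tested genes. DESeq2 called Chtf18, part of an alternative clamp loader, at 0.56, Ticrr, which activates origins, at 0.38, Nasp, a histone chaperone, at 0.27 and Uhrf1, which guides DNA methylation to newly copied strands, at 0.25. Their DESeq2 adjusted p were 0.000538, 0.0304, 0.0370 and 0.0298. Cyclin E genes went opposite ways: Ccne1 had 21.0 ± 0.732 and 25.6 ± 1.62 CPM (SD, n = 3 each) and Ccne2 37.5 ± 3.43 and 30.9 ± 2.64 CPM, with unadjusted edgeR p of 0.00832 and 0.0219 in fits across all genes that neither passed after adjustment.

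Of 35 mitotic genes, 29 were positive, with a median of 0.10. At that threshold 10 were higher (28.6%) and 0 lower, and 34.3% had every mutant value above every control value. For the 55 these shares were 29.1% and 40.0%. DESeq2 called Plk1, a kinase of mitotic entry, at 0.36 and Incenp, of the chromosomal passenger complex, at 0.30. Of 33 recombination and checkpoint genes, 20 were positive, with a median of 0.034. At that threshold 6 were higher (18.2%), among them Xrcc3 at 0.36 and Rad54l at 0.23. Groups without overlap in the higher direction made up 18.2% as well, and DESeq2 called 0 of the list. Among 10 E2F and DP factors, 6 were positive and 4 negative, with a median of 0.070. At that threshold 2 were higher (20%) and 0 lower. E2f8, a repressor of the family, had 0.36 (DESeq2 adjusted p of 0.0272), E2f4 0.24 and E2f1 0.09 (-0.175 to 0.353). The lowest were E2f2 at -0.17 (-0.480 to 0.138) and Tfdp2 at -0.13 (-0.303 to 0.0348). Tfdp2 had every mutant value below every control value. Whether the medians of these lists differ from that of the 55 was not tested.

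**Figure D4:**
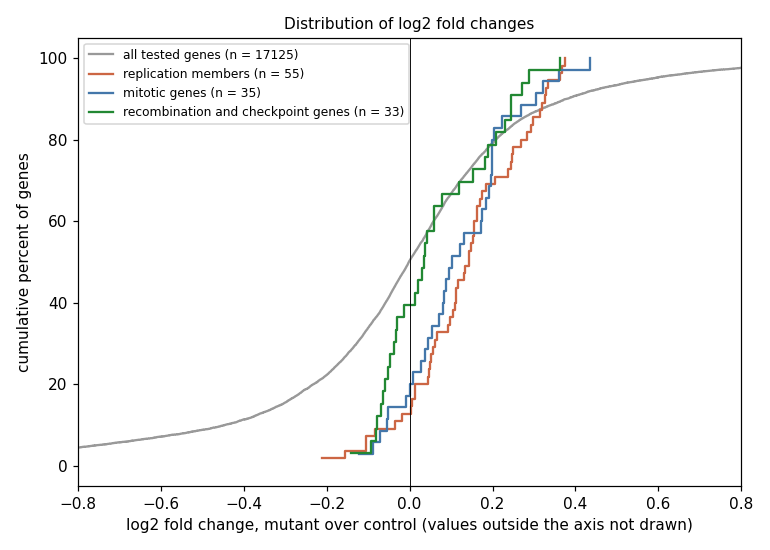
Lines give the cumulative percent of genes against log2 fold change for all 17125 tested genes, the 55 replication genes, 35 mitotic genes and 33 recombination and checkpoint genes. The replication line lies to the right of the line of all genes through its middle range, crosses 0 where 7 of 55 genes are negative, and ends at 0.37.

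GC content moved with these differences. Over the 55 genes the log2 fold change and the GC content of the longest transcript had a Pearson correlation of 0.653, as a description over genes that share the same 6 libraries, while over 17030 tested genes it was 0.107. The median log2 fold change of all tested genes ran from -0.08 in the 10% of genes lowest in GC content to 0.11 in the 10% highest. GC content of Rpa3 and Orc4 was 34.2% and 36.8%, and that of Pold1 61.0%. With offsets for GC content, an alternative chosen after seeing the data, 20 of the 55 genes were higher at an unadjusted p under 0.05, against 9.00% of genes, and the median was 0.14. Under these offsets Orc4 had -0.11 and Pold1 0.25, and Orc3, Orc5 and Rpa3 turned from negative to positive, at 0.054, 0.075 and 0.0012. The MCM2-7 genes lay between 0.20 and 0.29, Lig1 at 0.33 and Pole at 0.36.

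**Figure D5:**
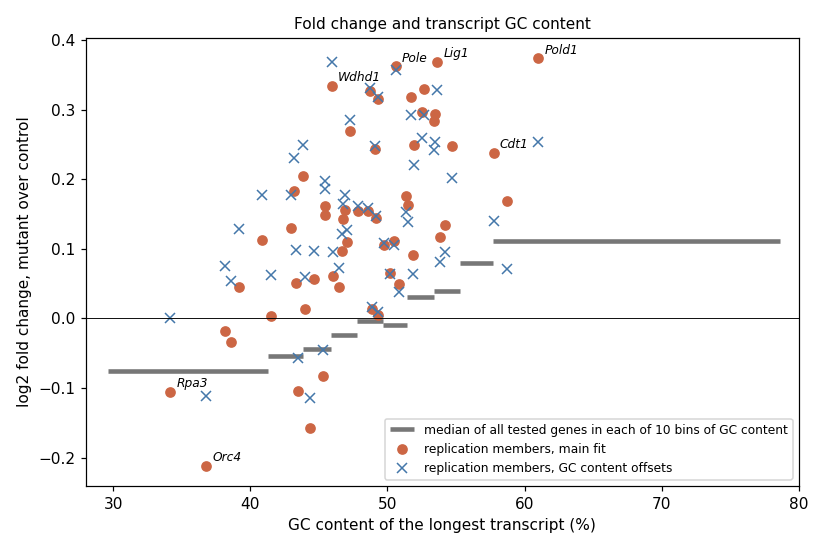
Points give the log2 fold change of each of the 55 genes against the GC content of its longest transcript, circles without and crosses with GC content offsets, and grey lines the median of all tested genes in each of 10 bins of GC content. The circles climb from Orc4 at 36.8% GC to Pold1 at 61.0%.

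Cell type markers also differed between the hearts. The 12 erythroid markers summed to 9302, 17135 and 39408 CPM in controls 1 to 3. In mutants 1 to 3 the sums were 6444, 7588 and 11465 CPM. Control 3, the heart lowest for 22 of the 55 genes, held the most of all hearts. Among the mutants, mutant 3, the heart highest for 24 of the 55, held the most. Control 3 also had the highest sums of cardiomyocyte, endothelial, and epicardial and fibroblast markers. At an unadjusted p under 0.05, 5 of the 12 erythroid markers were lower (41.7%), such as the adult globin Hbb-bs. Another 3 were higher (25%), the embryonic globins Hbb-y, Hbb-bh1 and Hba-x. Over all tested genes 9.98% were lower and 9.48% higher, and the marker counts below are to be read beside these shares. Hbb-bh1 had 1.92 ± 1.02 CPM in the controls and 15.4 ± 1.26 CPM in the mutants (SD, n = 3 each). Cardiomyocyte markers summed to between 24761 and 30593 CPM in the controls and 24908 and 26495 CPM in the mutants. Of these 12 genes, 2 were higher (16.7%) and 1 lower (8.33%). Endothelial markers summed to between 1104 and 1420 and between 1247 and 1307 CPM, with 0 higher and 1, Esam, lower (8.33%). In lists of 12 genes, both cell types had counts near the shares of all tested genes. Epicardial and fibroblast markers had 1 higher (8.33%) and 3 lower (25%) of 12, with sums of 2629 to 3973 CPM over all hearts. Macrophage markers had 1 higher (10%) and 3 lower (30%) of 10, with sums of 67.4 to 92.8 CPM. Smooth muscle and pericyte markers had 1 higher (10%) and 3 lower (30%) of 10. Their sums ran from 1578 to 1850 CPM in the controls and from 1481 to 1694 CPM in the mutants, while the mean of log2(CPM + 1) over the 10 differed from the control mean by -0.27, -0.0020 and 0.27 in controls 1 to 3 and by -0.36, -0.40 and -0.45 in mutants 1 to 3, without overlap. The 10 did not move as 1 group. Log2 fold changes were negative for 8, among them Myh11 at -2.40, Kcnj8 at -0.74 and Acta2 at -0.11. They were positive for 2, Tagln at 0.62 and Cnn1 at 0.48, and the median was -0.21. Myh11 stood at only 2.77 ± 2.08 CPM in the controls (SD, n = 3). Rgs5, a pericyte marker, had 44.2, 99.95 and 101 CPM in the controls and 12.8, 11.05 and 16.1 CPM in the mutants, a log2 fold change of -2.62 with adjusted p of 0.0645 in edgeR and 3.21e-08 in DESeq2. Of the markers, DESeq2 called Myh6, Myl7, Hbb-bh1, Hba-x, Upk3b and Cnn1 higher and Esam, Dcn, Postn, Myh11, Rgs5 and Kcnj8 lower. Over all genes with an adjusted p, DESeq2 called 2.67% higher and 3.43% lower. Of 8 neural crest and glial and 10 liver markers 4 each were tested, and 0 passed. The part of these markers in the differences of the 55 genes was not tested. Without control 3, 41 of the 55 were positive, where 50.9% of all tested genes were. In that fit 14 passed the unadjusted threshold as higher, against 8.44% of all tested genes, and 1 as lower. The median log2 fold change of the 55 was 0.12.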

How the data were processed

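RNA of 6 whole e13.5 hearts, 3 control and 3 mutant, was sequenced with 76 bp paired-end reads. The authors deposited raw counts per gene, made with STAR 2.4.2a on GRCm38 and GENCODE vM6 and counted with summarizeOverlaps. From a further table the authors deposited, a DESeq2 comparison, only the gene symbols were used. Its normalized mean, log2 fold changes and p-values were left out.

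Counts were fitted in R 4.3.3 with edgeR 4.0.16: filterByExpr (minimum count 10, minimum total 15), TMM, a quasi-likelihood test with condition as the only term, and Benjamini-Hochberg adjustment over all tested genes at 0.05. DESeq2 1.42.0 was the main alternative. No gene was adjusted over the list alone. Scripts were tested on simulated data. The hearts are separate samples by their titles, and p-values measure the spread between them. No 2 libraries agreed within counting noise. The paper states that controls were litter mates, but the labels do not say which hearts shared a litter. Deviations from the group mean correlated at 0.0093, -0.12 and -0.094 between same-numbered hearts and at -0.034 to 0.13 between the others. With 3 hearts per group these values cannot tell whether replicate numbers pair hearts, and the main fit used no pairing. Gene models were GENCODE vM21 and promoters RefSeq, both on GRCm38. Other alternatives were RLE and upper-quartile factors, library totals, other filters, thinning to the smallest total, each heart left out, a replicate block and, added after seeing the data, GC offsets and DESeq2 with each heart left out. Leaving out a heart leaves 2 in its group.

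The 55 genes and all lists were chosen with earlier results of these data known. Every gene is described, and each heart's value is given for MCM2-7, the 12 smallest p, the 3 largest log2 fold changes in each direction and genes without overlap in the lower direction. From the other replication, mitotic, recombination and checkpoint, and E2F lists, genes called by edgeR or DESeq2 are named and otherwise at most 3 per direction by smallest p. Beyond this rule Ccne1, Ccne2, E2f1, E2f2, E2f4, Tfdp2 and the cell type markers were named after their values were seen.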

Additional observations from a re-analysis of the deposited data

How the results depend on the processing

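The median log2 fold change of the 55 genes was positive under every alternative run. It was 0.20 with library totals alone, where the median of all tested genes was 0.055, and no other alternative moved it beyond the spread between control hearts. DESeq2 called 443 genes higher and 570 lower with 8 of the 55 among the former, no filter on low counts 262 and 341 with 1 (Lig1), the replicate block 1 and 13 with 0 of the 55, and GC offsets 0 and 1. By the labels, hearts share only a replicate number. The block gave 18 of the 55 higher at an unadjusted p under 0.05, against 9.71% of all tested genes. Leaving out single hearts in edgeR gave 0 to 320 genes called higher and 0 to 431 lower, both highest without control 1, where 1 of the 55 (Lig1) was called and 0 in the other fits. At the unadjusted threshold it gave 13 to 19 of the 55 higher, against 6.76% to 11.3% of all tested genes by fit, and 0 to 1 lower. Library totals alone gave 24 higher, against 13.5% of all tested genes. Genes of the 55 without overlap in the higher direction numbered 20 to 31 over the edgeR alternatives and DESeq2 on all hearts. They numbered 23 to 32 in edgeR with single hearts left out. With DESeq2 the same fits gave 151 to 784 genes higher, 244 to 984 lower, 1 to 10 of the 55 higher and 0 to 1 lower. Genes of the 55 without overlap in the lower direction numbered 2 with DESeq2 and RLE factors and 0 with library totals, thinning and GC offsets. With single hearts left out they numbered 1 to 6. In either direction, the share of all tested genes without overlap was counted in the main fit alone, at 14.3% higher and 12.8% lower. Counts under every other setting stand without that share. The 31 came with library totals alone, where 59.8% of all tested genes had a positive log2 fold change. Groups also separate more readily by order alone when a heart is left out. In both directions the counts of those fits are therefore not comparable with the counts on all hearts.

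Genes near 0 changed sign. Pola1 was at -0.0014 with RLE factors, Orc3 and Orc5 at 0.022 and 0.036 with library totals, Cdc45 and Rpa1 at -0.0028 and -0.0014 after thinning, and Orc3, Orc5 and Rpa3 at 0.054, 0.075 and 0.0012 with GC offsets. With single hearts left out, the range was -0.10 to 0.033 for Orc3, -0.13 to 0.046 for Orc5, -0.020 to 0.049 for Cdc45, -0.032 to 0.12 for Dbf4, -0.031 to 0.052 for Pola1, -0.059 to 0.14 for Prim1, -0.0041 to 0.12 for Pole2, -0.050 to 0.10 for Rpa1 and -0.015 to 0.12 for Rrm2. The signs of the other 46 genes held in those fits, 41 positive and 5 negative. The cause of these changes was not tested.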
